A study of Mus musculus with 18 samples.

Results

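The ligands, receptors, secreted inhibitors, feedback genes and nuclear effectors of Wnt signaling were chosen by symbol from the 55450 genes of the expression table. Earlier results of these data were known when the list was made. They are 49 genes, made up of 19 Wnt ligands, 12 receptors and co-receptors (10 Frizzled genes with Lrp5 and Lrp6), 2 R-spondin receptors (Lgr4 and Lgr5), 6 secreted inhibitors (Dkk1, Dkk3, Sfrp1, Sfrp2, Sfrp5 and Notum), 5 genes of β-catenin turnover and feedback (Axin1, Axin2, Nkd1, Rnf43 and Znrf3) and 5 nuclear effectors (Ctnnb1, Lef1, Tcf7, Tcf7l1 and Tcf7l2). A further 73 genes of the pathway and 35 cell type markers served as context.

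Wnt signaling carries messages between and within cells through secreted, lipid-modified ligands of the Wnt family. Ligands bind Frizzled receptors together with the co-receptors Lrp5 or Lrp6, which keeps β-catenin, encoded by Ctnnb1, from being degraded by the complex that Axin proteins scaffold. β-catenin then enters the nucleus and acts with the DNA-binding factors Lef1, Tcf7, Tcf7l1 and Tcf7l2. Secreted inhibitors such as Sfrp and Dkk proteins act outside the cell, and Axin2, Nkd1, Znrf3 and Rnf43 are known feedback genes that pathway activity can induce. In early embryos and in pluripotent cells the pathway is known for its part in forming the primitive streak.

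Poly(A) RNA was sequenced from 18 samples of P19, an embryonic carcinoma cell line of the mouse, 6 for each of 3 genotypes. WT cells are Dicer (+/+), HetKO cells are Dicer (+/-) with a loss-of-function truncation on 1 allele, and HM cells are Dicer (HM/-), which carry the same truncation and a missense mutation of the RNase IIIb domain on the other allele. Dicer cuts microRNA precursors, and the RNase IIIb domain frees their 5p strand. HetKO is a clonal line and HM was derived from it by a further editing step, so the mutation and the derivation of the line cannot be told apart. No source says whether the 6 samples of a line were separate cultures, and p-values therefore measure the spread between these samples, which may be technical. The values are TPM, a length-scaled abundance that adds up to 1000000 in each sample and keeps no sequencing depth.

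Dicer1 lay between 49.2 and 54.8 TPM in WT, 42.9 and 53.8 TPM in HetKO, and 35.4 and 44.2 TPM in HM. The pluripotency gene Pou5f1 was at 1814 to 2244 TPM in all samples, but other pluripotency markers were not level. Nanog averaged 46.9 TPM in WT, 86.3 in HetKO and 18.8 in HM, and Fgf4 averaged 11.4, 4.1 and 27.6 TPM. In the fits described below, 6 of the 9 listed markers were called between HM and WT, 4 higher and 2 lower. That is 66.7%, against 51.4% of all genes, and 4 were also called on the pair means described below. Samples were paired within lines by likeness, replicates 1 and 4, 2 and 5, and 3 and 6 in WT and HetKO, and 1 and 4, 2 and 3, and 5 and 6 in HM. Over 683 abundant genes, the robust SD of the log2 difference within a HetKO pair was at most 0.0696, against 0.164 to 0.358 between pairs. In HM it was 0.0595 to 0.105 within pairs and 0.168 to 0.279 between them. In WT the pairs were less distinct. Replicates 2, 3, 5 and 6 were alike at 0.0493 to 0.0939, and replicates 1 and 4 differed by 0.0746. Between these 2 sets the values were 0.179 to 0.205. Each test is therefore also given on the means of these pairs, 3 per line, wherever that ended a call. The means of WT replicates 2 and 5 and of 3 and 6 come from alike samples. A p-value on pair means against WT may therefore still be too small. Among the HetKO samples, replicates 2 and 5 stood apart in several of the genes below, and those results are given with and without them.

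Of the 49 genes, 33 reached a mean of 1 TPM in at least 1 line and 16 were below 1 TPM in all 3 lines. All 12 receptors, all 5 turnover and feedback genes and all 5 nuclear effectors were among the 33. Only 7 of the 19 ligands were, namely Wnt3, Wnt5a, Wnt5b, Wnt7a, Wnt8a, Wnt11 and Wnt16. The 12 other ligands (Wnt1, Wnt2, Wnt2b, Wnt3a, Wnt4, Wnt6, Wnt7b, Wnt8b, Wnt9a, Wnt9b, Wnt10a and Wnt10b) did not exceed 0.67 TPM in any sample. Lgr5, the secreted inhibitors Sfrp5 and Dkk1, and Notum, an enzyme that removes the lipid from Wnt proteins, made up the rest of the 16, with no value above 1.32 TPM. The number of reads behind such low values is unknown.

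Ctnnb1 (chromosome 9, 120929216 to 120960507, GRCm38) was the most abundant of the 49 genes at a mean of 427 TPM over the 18 samples. The next were Tcf7 at 66.0 TPM, Tcf7l1 at 42.3 TPM, Lrp6 at 41.3 TPM and Axin1 at 38.0 TPM. The most abundant Frizzled gene was Fzd7 at 37.2 TPM, followed by Fzd2 at 20.7 TPM and Fzd5 at 15.2 TPM. All ligands together summed to 13.6 to 25.5 TPM in WT and 12.4 to 26.6 TPM in HM, while the 12 receptors summed to 167 to 197 TPM in WT and 167 to 178 TPM in HM. In HetKO the ligand sum ran from 15.8 to 125 TPM, with a median of 44.0 TPM.

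**Figure D1:**
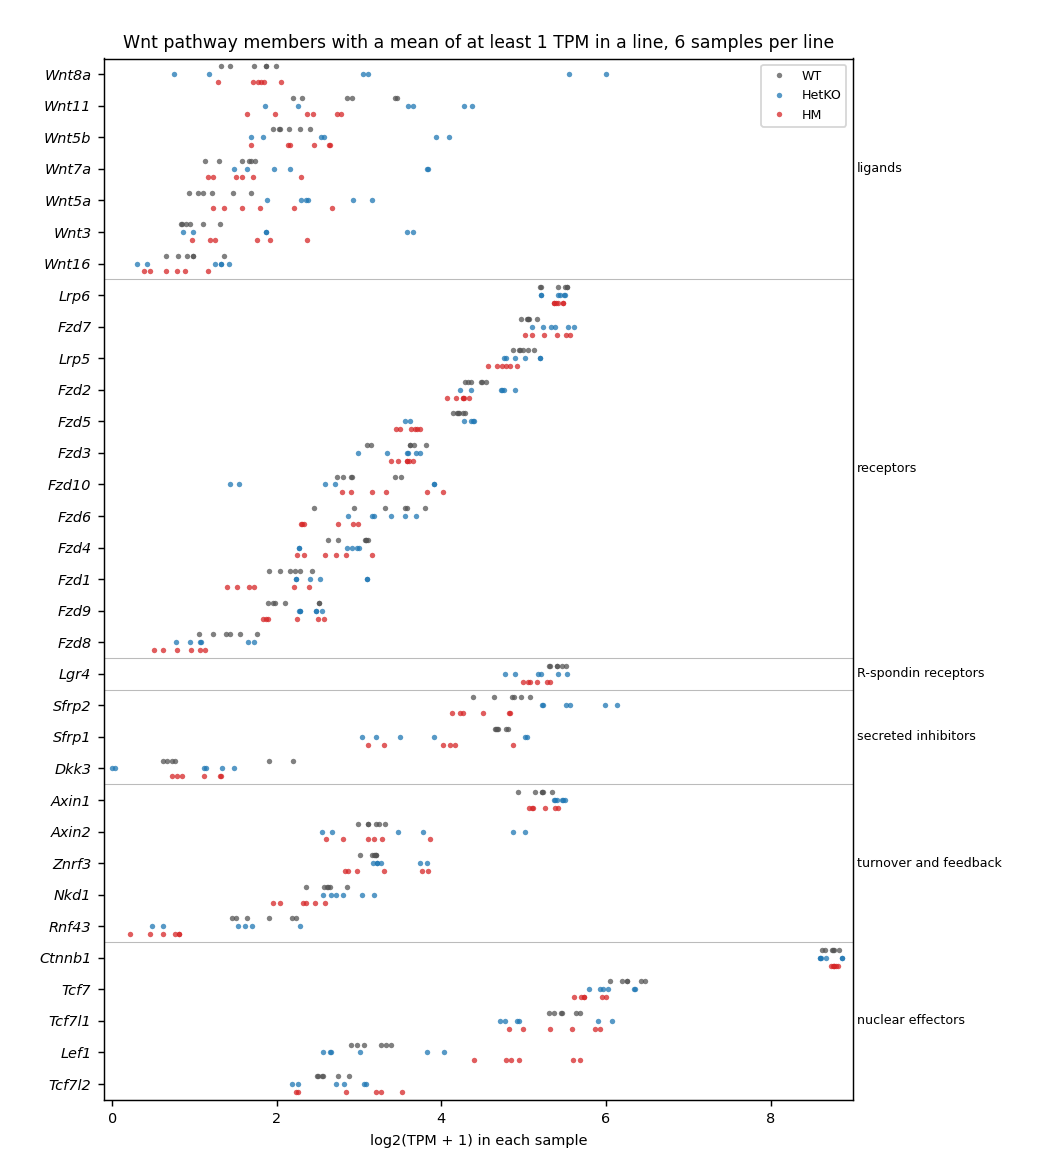
Level of the 33 genes that averaged 1 TPM or more in a line, on a log2(TPM + 1) axis, grouped by role and ordered by level. Each point is 1 of 6 samples per line (WT grey, HetKO blue, HM red). Lef1 in HM and Wnt8a in HetKO replicates 2 and 5 stand to the right of the other samples.

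The lines were compared gene by gene on log2(TPM + 1) with limma over all genes that averaged 1 TPM or more, and a gene was called when its Benjamini-Hochberg adjusted p was under 0.05. For genes of low TPM this scale gives too small a change. In HM against WT, 13 of the 32 genes tested were called, 3 higher and 10 lower in HM. Over all 14043 genes tested, 51.4% were called, 19.4% higher and 32.0% lower, so the share of these 32 genes that was called, 40.6%, did not exceed that of all genes. Between HetKO and WT, 4 of 33 were called, all higher in HetKO, against 10.2% of 13999 genes (3.71% higher and 6.44% lower). Between HM and HetKO, 8 of 32 were called, 1 higher and 7 lower in HM, against 34.6% of 13762 genes (14.0% higher and 20.6% lower). On pair means the calls were 4 (12.5%, against 23.6% of all genes), 0 (against 0.243%) and 0 (against 3.03%). The median difference of the tested genes was -0.04, 0.06 and -0.26 on the log2 scale in the 3 comparisons, beside -0.09, -0.03 and -0.05 over all genes tested. Over all 49 genes, without the filter, the medians were -0.01, 0.03 and -0.10. The first 2 comparisons share the WT samples.

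The split between higher and lower in HM depended on the scale of the samples. Centring each sample on its median moved the median HM to WT difference of all genes from -0.09 to 0.08. Then 7 of these genes were called higher and 4 lower (34.4%, against 52.6% of all genes). Quantile normalization gave 5 and 4 (28.1%, against 50.6%). The split of all genes moved too, to 4508 higher and 2879 lower after centring, and 3632 and 3479 after quantile normalization. Lef1, Tcf7, Fzd5 and Rnf43, the 4 genes also called on pair means, kept their direction and their call under both scalings.

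**Figure D2:**
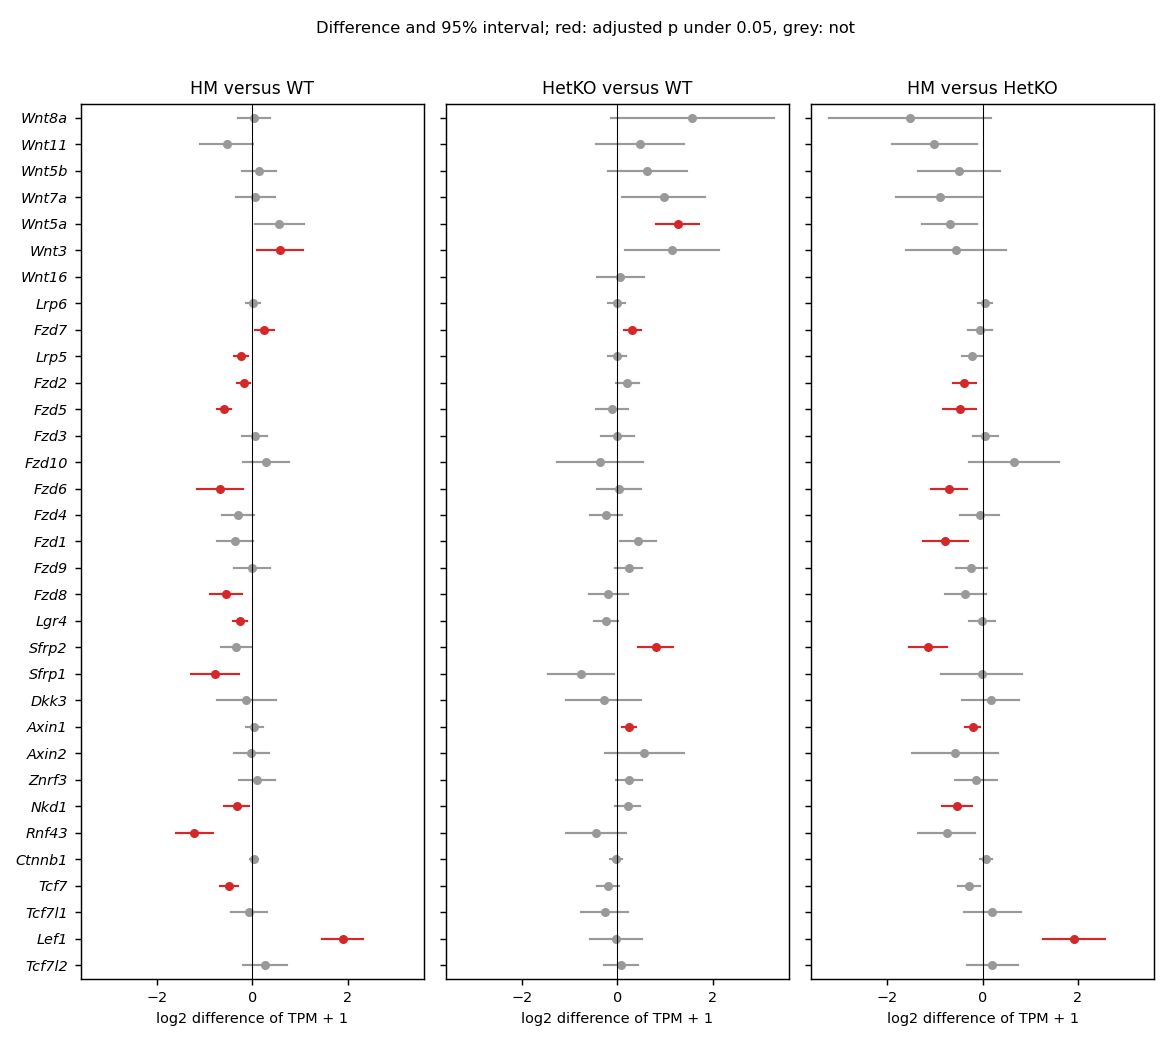
Difference between lines for each tested gene on the log2(TPM + 1) scale, with 95% intervals, in 3 panels for HM versus WT, HetKO versus WT and HM versus HetKO. Red marks an adjusted p under 0.05. Lef1 lies near 1.9 in both panels that involve HM.

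Among the nuclear effectors, Lef1 and Tcf7 moved in opposite directions in HM. Lef1, a DNA-binding partner of β-catenin whose own transcription can respond to the pathway, is encoded on chromosome 3 (131110471 to 131224356, plus strand, GRCm38). Replicates 1 to 6 of WT had Lef1 at 8.61, 6.45, 9.43, 9.02, 7.32 and 6.85 TPM. HetKO had 4.92, 15.4, 5.29, 5.24, 13.2 and 7.06 TPM, and HM had 26.6, 47.7, 50.5, 20, 27.8 and 29.8 TPM. All 6 HM samples lay above all 12 others, with replicates 2 and 3 highest, and HetKO replicates 2 and 5 were the highest outside HM. Lef1 rose in HM by 1.90 on the log2 scale against WT (standard error 0.20, 95% interval 1.46 to 2.33, adjusted p = 1.79e-05 from limma, 0.0113 on pair means), a 3.72-fold difference. Without HM replicates 2 and 3 the difference was 1.59 (adjusted p = 1.47e-05 from limma). Against HetKO it was 1.92 (standard error 0.30, adjusted p = 0.000569 from limma), but 0.0543 on pair means. Between HetKO and WT the difference was -0.03 (95% interval -0.57 to 0.52, adjusted p = 0.955 from limma), and -0.43 without HetKO replicates 2 and 5 (adjusted p = 0.063 from limma).

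RefSeq (GRCm38.p6) gives Lef1 4 start windows of 300 bases, each from 250 bases before to 50 bases after an annotated start. Examples are shown because Lef1 had the largest difference of these genes between HM and WT, and because its transcription can respond to the factors of its own family. The core letters bound by these factors, CTTTGA or its reverse TCAAAG, were searched on both strands and are in capitals. The 3 windows nearest the 5′ end of the gene held none, and the window farthest into the gene held 2. The window of Axin2, a widely used reporter of the pathway, is shown beside them and also held none.

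Lef1, start near the 5′ end, chr3:131110073-131110372, plus strand: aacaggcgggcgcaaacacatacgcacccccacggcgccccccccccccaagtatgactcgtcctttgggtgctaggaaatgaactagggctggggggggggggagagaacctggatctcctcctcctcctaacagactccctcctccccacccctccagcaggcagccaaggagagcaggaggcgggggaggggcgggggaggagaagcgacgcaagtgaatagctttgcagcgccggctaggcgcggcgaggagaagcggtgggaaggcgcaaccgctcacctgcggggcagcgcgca

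Lef1, start farthest into the gene, chr3:131156044-131156343, plus strand: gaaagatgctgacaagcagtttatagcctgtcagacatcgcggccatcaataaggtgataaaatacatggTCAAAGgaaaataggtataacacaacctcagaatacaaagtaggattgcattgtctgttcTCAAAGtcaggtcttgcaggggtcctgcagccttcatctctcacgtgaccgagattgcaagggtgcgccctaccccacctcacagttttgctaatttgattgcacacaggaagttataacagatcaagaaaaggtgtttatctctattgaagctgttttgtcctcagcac

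Axin2, chr11:108920099-108920398, plus strand: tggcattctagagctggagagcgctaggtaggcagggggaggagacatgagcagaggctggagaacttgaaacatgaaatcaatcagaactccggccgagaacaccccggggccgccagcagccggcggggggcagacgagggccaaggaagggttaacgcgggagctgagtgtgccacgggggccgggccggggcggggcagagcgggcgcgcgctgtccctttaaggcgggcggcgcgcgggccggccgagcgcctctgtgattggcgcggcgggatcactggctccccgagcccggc

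Of the 33 genes of the set with a RefSeq window, 5 held the letters in at least 1 window (Lef1, Fzd1, Wnt5b, Wnt11 and Dkk1), or 15.2%, against 18.2% of 27025 genes with a window. Dkk1 was too low to be tested, and of the others Lef1 alone was called in HM versus WT over all samples. In that comparison 40.6% of the tested genes of the set and 51.4% of all genes were called. Wnt5b was also called after quantile normalization, and Fzd1 without HM replicates 2 and 3. A match of 6 letters is a description of the window and not a binding site.

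Tcf7, the most abundant of the DNA-binding effectors, fell in HM. It ranged from 65.2 to 87.7 TPM in WT (median 75.6), 54.3 to 80.9 in HetKO (median 62.8) and 47.8 to 62.9 in HM (median 52.1). The HM and WT samples did not overlap, and HetKO samples overlapped both. HM differed from WT by -0.49 (standard error 0.09, adjusted p = 0.000485 from limma, 0.0336 on pair means), and between HM and HetKO it was -0.28 (adjusted p = 0.0587 from limma), or -0.39 without HetKO replicates 2 and 5 (adjusted p = 0.0123 from limma). Ctnnb1 was close to level across the lines, at 394 to 454 TPM in WT (median 429), 387 to 467 in HetKO (median 401) and 427 to 450 in HM (median 436). Its difference between HM and WT was 0.04 (95% interval -0.04 to 0.13, adjusted p = 0.396 from limma), which takes the opposite sign after quantile normalization (-0.09) and is called, at 0.22, after centring. Tcf7l1, which acts mainly as a repressor, ranged from 38.5 to 50.5 TPM in WT, 25.2 to 66.6 in HetKO and 27.4 to 59.7 in HM. Tcf7l2 ranged from 4.63 to 6.37 TPM in WT, 3.55 to 7.47 in HetKO and 3.70 to 10.5 in HM. Neither passed the test in any comparison of all samples, and Tcf7l2 was called higher in HM than in WT without HM replicates 2 and 3 (0.59, adjusted p = 0.00402 from limma).

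**Figure D3:**
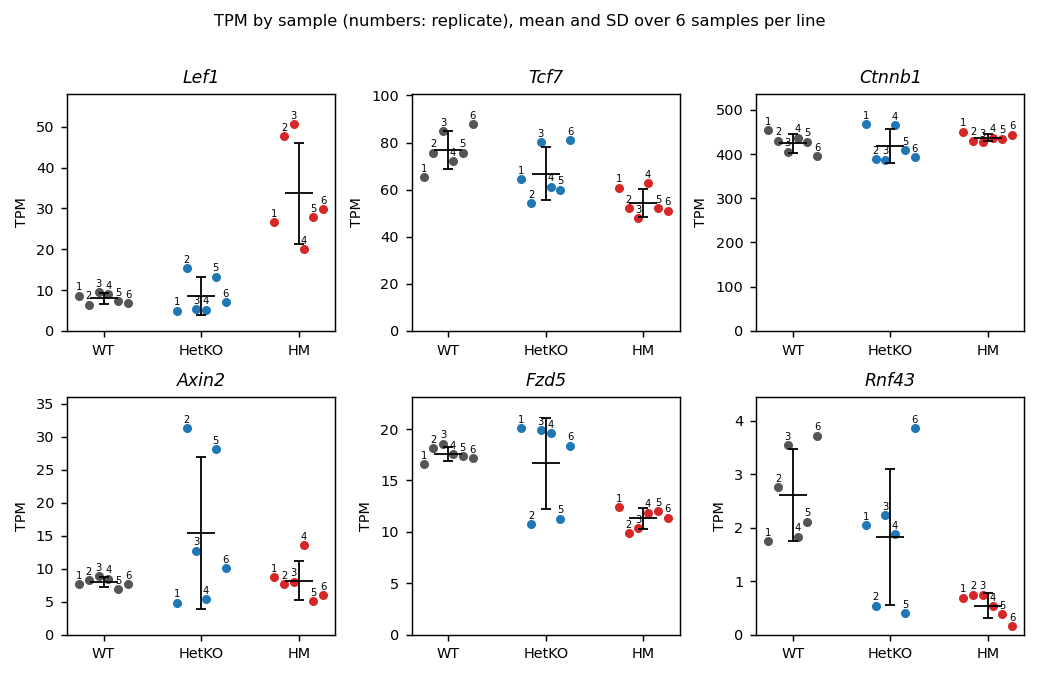
TPM in each sample (numbered by replicate) for Lef1, Tcf7, Ctnnb1, Axin2, Fzd5 and Rnf43, with the mean and SD of 6 samples per line in black. Lef1 is higher and Tcf7, Fzd5 and Rnf43 are lower in every HM sample than in every WT sample, while Axin2 is highest in HetKO replicates 2 and 5.

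Axin2, unlike Lef1, was not called between HM and WT. It was at 6.94 to 8.91 TPM in WT (median 7.95) and 5.07 to 13.6 in HM (median 7.86), with HM values on both sides of WT and a difference of -0.02 (95% interval -0.39 to 0.35, adjusted p = 0.925 from limma). In HetKO it ranged from 4.83 to 31.3 TPM (median 11.4), with 31.3 and 28.1 TPM in replicates 2 and 5 and at most 12.8 TPM in the others, so that within HetKO both Axin2 and Lef1 were highest in these replicates. The difference between HetKO and WT was 0.56 (adjusted p = 0.363 from limma), and -0.05 without these 2 samples (adjusted p = 0.932 from limma).

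The other feedback and turnover genes went their own ways. Rnf43, a membrane ubiquitin ligase that removes Frizzled receptors from the cell surface, was at 1.75 to 3.72 TPM in WT (median 2.44), 0.40 to 3.86 in HetKO (median 1.97) and 0.16 to 0.75 in HM (median 0.61). It fell in HM by 1.21 on the log2 scale against WT, with no overlap (standard error 0.18, adjusted p = 0.000137 from limma, 0.0213 on pair means). The 2 HetKO samples at HM levels were replicates 2 and 5, and the difference between HM and HetKO was -0.76 (adjusted p = 0.0517 from limma), or -1.17 without them (adjusted p = 0.000793 from limma). Znrf3, the paralog of Rnf43 with the same role, ranged from 7.05 to 8.26 TPM in WT, 7.99 to 13.2 in HetKO and 6.08 to 13.2 in HM, and was not called in any comparison.

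Nkd1, an inhibitor that binds Dishevelled, was at 4.12 to 6.22 TPM in WT (median 5.16), 4.89 to 8.08 in HetKO (median 5.78) and 2.88 to 4.99 in HM (median 4.05). Its HM values overlapped those of both other lines. It was lower in HM, with a difference of -0.33 against WT (adjusted p = 0.0413 from limma, 0.213 on pair means) and -0.54 against HetKO (adjusted p = 0.0121 from limma, 0.193 on pair means). The call against WT was lost in 15 alternative settings, among them centring, quantile normalization and the removal of any of several single libraries. Axin1, the constitutive scaffold of the destruction complex, was at 29.5 to 39.7 TPM in WT (median 36.4), 40.2 to 44.3 in HetKO (median 42.3) and 32.5 to 41.6 in HM (median 35.4). It was higher in HetKO than in WT in every sample, by 0.25 (adjusted p = 0.0352 from limma), and lower in HM than in HetKO, at a difference of -0.21 (adjusted p = 0.0414 from limma). Both calls were lost on pair means (adjusted p = 0.473 and 0.321 from limma) and without HetKO replicates 2 and 5.

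Of the 12 receptors, 5 were called lower and 1 higher in HM than in WT, so that 6 of 12 were called, a share close to the 51.4% of all genes. Fzd5, on chromosome 1 from 64730558 to 64737751, was at 16.6 to 18.6 TPM in WT (median 17.4), 10.7 to 20.1 in HetKO (median 19.0) and 9.89 to 12.4 in HM (median 11.6). HM and WT did not overlap, and the HetKO samples within the HM range were again replicates 2 and 5, at 10.7 and 11.3 TPM. Fzd5 fell in HM by 0.60 on the log2 scale against WT (standard error 0.07, adjusted p = 2.64e-05 from limma, 0.0175 on pair means). Against HetKO the difference was -0.48 (adjusted p = 0.0343 from limma, 0.249 on pair means), or -0.74 without HetKO replicates 2 and 5 (adjusted p = 8.71e-05 from limma) and -0.41 without HM replicates 2 and 3 (adjusted p = 0.112 from limma).

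Fzd6 was at 4.45 to 13.0 TPM in WT (median 9.87), 6.27 to 11.9 in HetKO (median 8.76) and 3.92 to 6.93 in HM (median 4.85). All 6 HM values were below 7 TPM, but WT and HetKO each held samples within that range. It was lower in HM, at -0.68 against WT (adjusted p = 0.0214 from limma, 0.114 on pair means) and -0.71 against HetKO (adjusted p = 0.00784 from limma, 0.133 on pair means). Without HM replicates 2 and 3 the first of these was -0.53 (adjusted p = 0.0951 from limma).

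Fzd2 was at 18.6 to 22.2 TPM in WT (median 20.4), 17.8 to 28.8 in HetKO (median 25.6) and 15.8 to 19.2 in HM (median 18.2). Its differences were small, -0.18 against WT (adjusted p = 0.0372 from limma, 0.221 on pair means) and -0.39 against HetKO (adjusted p = 0.0192 from limma, 0.209 on pair means), and the calls were also lost without HM replicates 2 and 3 (0.053) and without HetKO replicates 2 and 5 (0.0536). Fzd1 was at 2.75 to 4.37 TPM in WT (median 3.57), 3.72 to 7.58 in HetKO (median 4.51) and 1.64 to 4.24 in HM (median 2.23). Over all samples it was called between HM and HetKO only, at -0.78 (adjusted p = 0.0153 from limma, 0.184 on pair means), with HetKO replicates 2 and 5 highest at 7.53 and 7.58 TPM. Without HM replicates 2 and 3 it was also called against WT, at -0.60 (adjusted p = 0.00273 from limma).

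Fzd7 was the single receptor called higher. It was at 30.3 to 34.9 TPM in WT (median 32.1), 33.2 to 47.7 in HetKO (median 39.9) and 31.3 to 46.2 in HM (median 39.1). The ranges overlapped in both comparisons with WT. The differences were 0.25 for HM (adjusted p = 0.0349 from limma) and 0.31 for HetKO (adjusted p = 0.0337 from limma). Both calls were lost on pair means (adjusted p = 0.198 and 0.466 from limma), and the HetKO call was lost without replicates 2 and 5.

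The co-receptor Lrp5 was at 28.3 to 33.9 TPM in WT (median 30.4), 26.1 to 35.8 in HetKO (median 30.1) and 22.7 to 29.2 in HM (median 26.2), a difference of -0.24 between HM and WT (adjusted p = 0.0117 from limma, 0.143 on pair means). Its paralog Lrp6 differed by 0.02 (95% interval -0.13 to 0.17). Lgr4, which binds R-spondins and thereby counters Rnf43 and Znrf3, was at 38.5 to 44.6 TPM in WT (median 41.4), 26.3 to 45.1 in HetKO (median 35.6) and 30.9 to 39.1 in HM (median 33.8). Its HM values overlapped those of WT in 1 sample, at a difference of -0.25 (adjusted p = 0.00763 from limma, 0.121 on pair means). Fzd8, at 1.07 to 2.38 TPM in WT and 0.42 to 1.18 TPM in HM, differed by -0.55 (adjusted p = 0.0102 from limma, 0.119 on pair means). Fzd3, Fzd4, Fzd9 and Fzd10 did not pass in any comparison of all samples, and Fzd10 was higher in HM than in HetKO, by 1.27, without HetKO replicates 2 and 5 (adjusted p = 0.00841 from limma). Between HM and WT the calls of Fzd2, Fzd6, Fzd8, Lrp5 and Lgr4 were also lost after centring and after quantile normalization.

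The secreted inhibitors Sfrp1 and Sfrp2, which can bind Wnt proteins, differed between lines in separate ways. Sfrp2 was at 19.96 to 32.8 TPM in WT (median 28.2), 36.4 to 69.4 in HetKO (median 45.4) and 16.5 to 27.4 in HM. Every HetKO sample lay above every WT and HM sample, with replicates 1 and 4 highest. It was higher in HetKO than in WT by 0.81 (standard error 0.17, adjusted p = 0.01 from limma, 0.297 on pair means), and lower in HM than in HetKO, at -1.15 (standard error 0.18, adjusted p = 0.000643 from limma, 0.0533 on pair means). Without HetKO replicates 2 and 5 these were 1.00 and -1.34 (adjusted p = 0.00315 and 0.000233 from limma). Between HM and WT the difference was -0.34 (adjusted p = 0.0709 from limma).

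Sfrp1 was tightly placed in WT, at 24.1 to 27.0 TPM (median 24.6), and spread widely in both edited lines, at 7.17 to 31.9 in HetKO (median 12.1) and 7.65 to 28.1 in HM (median 15.7). In HM, replicate 1 stood above the WT samples and replicates 2 and 3 were lowest, at 8.87 and 7.65 TPM. HM differed from WT by -0.78 (standard error 0.23, adjusted p = 0.0133 from limma, 0.106 on pair means), and -0.42 without HM replicates 2 and 3 (adjusted p = 0.0277 from limma). HetKO differed from WT by -0.76 (adjusted p = 0.147 from limma). Dkk3 ranged from 0 to 3.59 TPM over all samples and was not called.

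**Figure D4:**
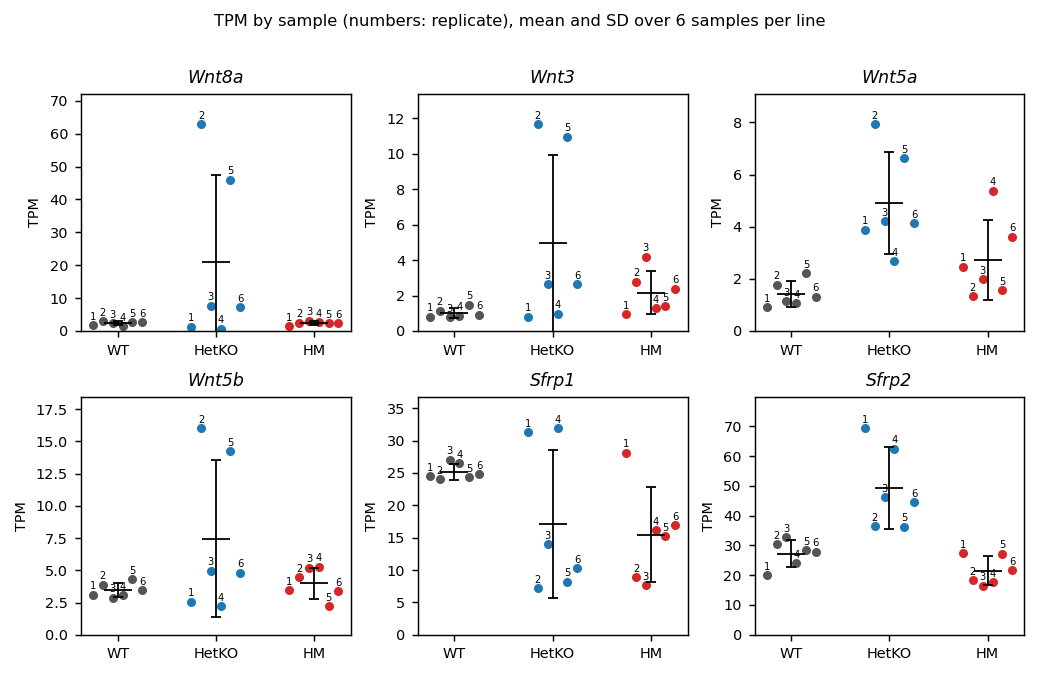
TPM in each sample (numbered by replicate) for the ligands Wnt8a, Wnt3, Wnt5a and Wnt5b and the inhibitors Sfrp1 and Sfrp2, with the mean and SD of 6 samples per line in black. HetKO replicates 2 and 5 are the highest samples in all 4 ligand panels, and every HetKO sample is above every WT sample for Wnt5a and Sfrp2.

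Among ligands, 1 call was made in each comparison with WT. Wnt5a, best known for signaling independent of β-catenin, was at 0.91 to 2.22 TPM in WT (median 1.23), 2.68 to 7.92 in HetKO (median 4.17) and 1.33 to 5.38 in HM (median 2.23). It was higher in every HetKO sample than in every WT sample, by 1.26 (standard error 0.21, adjusted p = 0.00255 from limma, 0.191 on pair means), and by 0.99 without HetKO replicates 2 and 5 (adjusted p = 0.00545 from limma). Between HM and WT it differed by 0.56 (adjusted p = 0.0631 from limma), and it was called after centring, after quantile normalization (0.81, adjusted p = 0.0147 from limma) and without HM replicates 2 and 3 (0.77, adjusted p = 0.0223 from limma). Wnt3, a ligand of the β-catenin branch, was at 0.79 to 1.48 TPM in WT and 0.95 to 4.18 in HM, an overlapping difference of 0.59 (adjusted p = 0.0407 from limma, 0.175 on pair means). Without HM replicates 2 and 3 its call was lost. Between HM and HetKO no ligand was called over all samples, and Wnt16 was called without HetKO replicates 2 and 5, at -0.61 (adjusted p = 0.0147 from limma).

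Most of the ligand variation lay within HetKO. Wnt8a, a ligand of the primitive streak, was at 1.5 to 2.98 TPM in WT and 1.44 to 3.13 in HM. In HetKO replicates 1 to 6 it was 1.26, 62.8, 7.65, 0.68, 46.0 and 7.25 TPM, so that the line spanned values below WT to far above it in its 3 alike pairs. Wnt3 was 0.81, 11.65, 2.65, 0.97, 10.95 and 2.64 TPM in the same order, Wnt7a was 1.79, 13.4, 3.46, 2.10, 13.2 and 2.91 TPM, and Wnt5b was 2.55, 16.02, 4.97, 2.21, 14.3 and 4.80 TPM. Wnt11 differed in its order, with 18.4 and 19.7 TPM in replicates 3 and 6, 11.6 and 11.0 TPM in replicates 2 and 5, and 2.63 and 3.79 TPM in replicates 1 and 4. None of Wnt3, Wnt5b, Wnt7a, Wnt8a and Wnt11 was called between HetKO and WT, with adjusted p from limma of 0.125 to 0.49.

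Of the 32 genes of the set that averaged 1 TPM or more over all 18 samples, 9 had their 2 highest values in HetKO replicates 2 and 5 (Wnt3, Wnt5a, Wnt5b, Wnt7a, Wnt8a, Axin2, Nkd1, Fzd1 and Lrp5), or 28.1%, against 6.41% of 13955 genes. In 2 of them, Dkk3 and Lgr4, the same samples held the 2 lowest values, or 6.25%, against 9.72% of genes. Other alike pairs also held extremes. HetKO replicates 1 and 4 held the 2 highest values in 4 genes (12.5%, against 3.63%) and the 2 lowest in 3 (9.38%, against 2.79%). HM replicates 2 and 3 held the 2 lowest in 4 (12.5%, against 3.45%), and HM replicates 5 and 6 in 3 (9.38%, against 12.2%). These counts describe alike samples and carry no test. Of the primitive streak markers, Eomes and T were also high in HetKO replicates 2 and 5. Eomes was at 80.8 and 67.9 TPM there, against 7.02 to 15.5 TPM in the 4 other HetKO samples. Tbx6, at 2.73 and 1.94 TPM against 1.92 to 2.41 TPM, and Mixl1, at 1.17 and 0.80 TPM against 0.33 to 0.84 TPM, did not stand apart in both. The 6 mesenchymal markers summed to 10.8 and 11.5 TPM in these samples, against 37.6 to 40.4 TPM in the other HetKO samples, 33.1 to 62.9 in WT and 23.4 to 42.7 in HM. The 8 streak and mesoderm markers summed to 16.8 to 23.3 TPM in WT, 11.4 to 195 in HetKO and 31.5 to 66.1 in HM, with Msgn1 at 0 in every sample and Mesp1 and Foxf1 below 1 TPM. The part of such cells in the Wnt gene values was not tested, and in bulk RNA more cells of a type and more RNA per cell cannot be told apart.

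Of the 3 genes listed for secretion of Wnt proteins, Porcn and Wls were lower in HM. Porcn, the enzyme that adds their lipid, was at 8.88 to 17.2 TPM in WT (median 10.7), 16.2 to 45.2 in HetKO (median 33.8) and 3.01 to 9.28 in HM (median 4.65). HM and HetKO did not overlap, and WT lay between them with some overlap on both sides. The difference was -1.06 between HM and WT (adjusted p = 0.00502 from limma, 0.0669 on pair means), 1.23 between HetKO and WT (adjusted p = 0.0111 from limma, 0.302 on pair means) and -2.28 between HM and HetKO (standard error 0.31, adjusted p = 0.000198 from limma, 0.0367 on pair means). Wls, the carrier that takes Wnt proteins to the surface, was at 15.1 to 29.2 TPM in WT (median 27.0), 22.4 to 33.6 in HetKO (median 24.5) and 6.80 to 14.1 in HM (median 11.5). Wls fell in HM by 1.09 against WT and by 1.26 against HetKO, with no overlap (adjusted p = 0.00114 and 0.000198 from limma, 0.0405 and 0.0421 on pair means). Tmed5, the remaining gene of this list, was at 19.8 to 29.3 TPM in WT and 27.2 to 39.7 in HM, a difference of 0.36 (adjusted p = 0.0265 from limma, 0.151 on pair means).

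Of the wider list of 73 pathway genes, 53 were tested between HM and WT and 29 were called, 9 higher and 20 lower, a share of 54.7% beside the 51.4% of all genes. The split and the share depended on the scale. After centring 12 were called higher and 8 lower (37.7%, against 52.6% of all genes). Quantile normalization gave 9 higher and 13 lower (41.5%, against 50.6%). On pair means 10 were called (18.9%, against 23.6%). Between HetKO and WT 9 of 54 were called (16.7%, against 10.2% of all genes), 5 higher and 4 lower, with none on pair means. Between HM and HetKO 23 of 55 were called, 6 higher and 17 lower, a share of 41.8% beside 34.6% of all genes, with 4 on pair means (7.27%, against 3.03% of all genes). After centring, 9 were called higher and 9 lower (32.7%, against 35.3% of all genes). Gpc4, a cell surface glypican, was at 6.31 to 12.8 TPM in WT, 5.06 to 8.60 in HetKO and 18.3 to 26.8 in HM. It rose in HM by 1.18 against WT and by 1.65 against HetKO, with no overlap (adjusted p = 0.000129 and 4.25e-06 from limma).

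In the destruction complex and signal relay, 11 of 17 genes were called between HM and WT, 9 of them lower, with a median difference of -0.24 over the 17. The share called was 64.7%, beside 51.4% of all genes. After centring, Btrc and Tnks alone of the 9 kept their call as lower, and Apc was no longer called. Csnk1a1, Fbxw11, Gsk3a and Nkd2 were then called higher in HM. Of all genes, 52.6% were called after centring. Apc, a scaffold of the complex, was at 32.8 to 40.1 TPM in WT, 24.8 to 40.9 in HetKO and 27.9 to 31.7 in HM, lower in HM than in WT, at -0.30, with no overlap (adjusted p = 0.0011 from limma, 0.0484 on pair means). Gsk3b, the kinase of the complex, was at 16.4 to 21.3, 13.6 to 21.1 and 14.2 to 19.9 TPM in the same order and differed by -0.12 (95% interval -0.33 to 0.10).

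**Figure D5:**
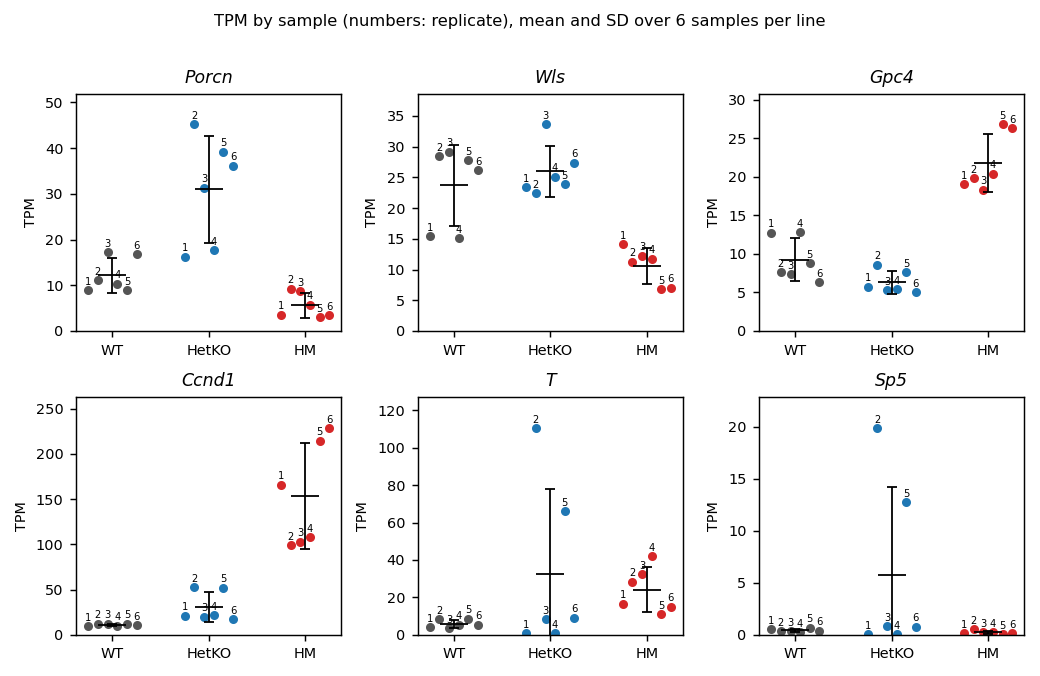
TPM in each sample (numbered by replicate) for the secretion genes Porcn and Wls, the glypican Gpc4, and the responsive genes Ccnd1, T and Sp5, with the mean and SD of 6 samples per line in black. Every HM sample is above every WT and HetKO sample for Gpc4 and Ccnd1 and below them for Wls, and Sp5 exceeds 1 TPM in HetKO replicates 2 and 5 alone.

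Genes known to respond to Wnt signaling in some cells did not move as a group. Ccnd1, a cyclin of the G1 phase, was at 9.65 to 12.4 TPM in WT (median 11.3), 17.5 to 52.7 in HetKO (median 21.3) and 99.1 to 228 in HM (median 137). The 3 lines did not overlap, and Ccnd1 rose in HM by 3.59 against WT (standard error 0.21, adjusted p = 1.54e-07 from limma, 0.00224 on pair means), a 12.01-fold difference, and by 2.35 against HetKO (adjusted p = 0.000228 from limma, 0.0367 on pair means). T, the Brachyury gene of the primitive streak, was at 3.45 to 8.60 TPM in WT and 10.9 to 41.9 in HM, higher by 1.80 (adjusted p = 0.000418 from limma, 0.0185 on pair means). In HetKO replicates 1 to 6 it was 0.94, 110.5, 8.17, 0.97, 66.2 and 9.13 TPM, the same order of pairs as Wnt8a.

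Sp5, a repressor induced early by the pathway, was at 0.25 to 0.69 TPM in WT and 0.08 to 0.52 in HM, and at 19.8 and 12.8 TPM in HetKO replicates 2 and 5 against at most 0.82 in the other HetKO samples. Cdx2 followed it at 2.72 and 2.58 TPM in those 2 samples and at most 0.36 TPM in all others, and Cdx1 did not exceed 0.62 TPM. Tbx6 fell in HM by 1.01 against WT and 0.81 against HetKO, from 1.86 to 3.68 and 1.92 to 2.73 TPM to 0.56 to 1.30 TPM (adjusted p = 0.000164 and 0.000914 from limma, the second 0.0857 on pair means). Mixl1 was at 0.59 to 0.91 TPM in WT and 0.63 to 1.81 in HM (difference 0.40, adjusted p = 0.0425 from limma, 0.218 on pair means). Myc was at 10.3 to 27.9 TPM in WT, 7.27 to 34.5 in HetKO and 15.1 to 49.9 in HM and was called only against HetKO without replicates 2 and 5 (1.36, adjusted p = 0.00753 from limma).

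Because Dicer makes microRNAs, the 3′ untranslated regions of the 49 genes were searched for the reverse complement of bases 2 to 8, the seed, of 10 mature microRNAs. The protein-coding transcript with the longest 3′ untranslated region in GENCODE M21 was used for each gene, with a median of 1703 bases for the 49 genes and 961 bases for 21001 genes. For 3p strands, miR-7a-1-3p matched in 10 of 49 genes (20.4%, against 19.3% of all), miR-15b-3p in 4 (8.16%, against 7.61%), and the seed that miR-20b-3p has in common with miR-17-3p in 6 (12.2%, against 13.7%). For 5p strands the values were 11 of 49 for miR-7a-5p (22.4%, against 11.9%), 14 for the shared seed of miR-15b-5p and miR-16-5p (28.6%, against 20.3%), 6 for that of miR-17-5p and miR-20b-5p (12.2%, against 11.8%) and 6 for miR-26a-5p (12.2%, against 9.68%). These shares carry no test and were not matched for length.

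The 4 genes called between HM and WT on pair means are set beside these seeds. Lef1 and Tcf7 held no match to any of the 10, and Fzd5 and Rnf43 held none to a 3p seed. Other genes called between HM and WT held 3p matches in both directions of change. Of those lower in HM, Sfrp1 held 2 matches to the seed of miR-17-3p. Lgr4 held 2 to miR-7a-1-3p and 1 to miR-15b-3p, and Fzd2 and Fzd8 each held 1 to miR-7a-1-3p. Fzd7, called higher in HM, held 2 to miR-7a-1-3p. Fzd6, called lower, held no 3p match and 2 to miR-7a-5p. Fzd5, Rnf43 and Nkd1, all lower in HM, each held 1 match to the miR-15b-5p and miR-16-5p seed. Fzd8, also called lower, and Axin2, which was not called, each held 2. Nkd1 and Fzd8 each held 1 to the seed of miR-17-5p and miR-20b-5p, and Fzd6 and Lgr4 each held 1 to miR-26a-5p. Fzd5 and Sfrp2 each held 1 to miR-7a-5p. The mature strands are from RefSeq (GRCm38.p6), with the seed in capitals, and the sites are from GENCODE M21 transcripts (GRCm38), written 5′ to 3′ with the match in capitals.

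miR-15b-5p: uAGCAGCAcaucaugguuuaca

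miR-16-5p: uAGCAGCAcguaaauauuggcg

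miR-7a-5p: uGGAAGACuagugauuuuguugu

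Fzd5, miR-15b-5p and miR-16-5p match, chr1:64732761-64732787, minus strand: cttcccagaatcTGCTGCTccctcccc

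Fzd5, miR-7a-5p match, chr1:64732775-64732801, minus strand: ttgtttagcatgGTCTTCCcagaatct

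Rnf43, miR-15b-5p and miR-16-5p match, chr11:87734534-87734560, plus strand: tagatgtaaaggTGCTGCTctttcctc

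Sfrp2, miR-7a-5p match, chr3:83773905-83773931, plus strand: tgttatctcaaaGTCTTCCtcagttcc

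The printed stretches of Fzd5 overlap. A match of 7 letters is a description of the sequence and not evidence of binding, and microRNA levels were not analysed here.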

How the data were processed

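RNA of 6 samples each of WT, HetKO and HM P19 cells was measured by mRNA-seq. The authors made the deposited TPM values with BBMerge (merging of read pairs) and RSEM (quantification), to 2 decimals. Per the labels, cutadapt, STAR and mm10 were also used. The RSEM reference is not given in the sources used here. TPM keeps no depth, so no counting interval was set, and precision rests on the spread between samples. All 55450 gene identifiers matched GENCODE M21 (GRCm38).

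Each pair of lines was fitted with limma 3.58.1 (R 4.3.3), with a variance trend, on log2(TPM + 1) for genes averaging 1 TPM or more in its 12 samples. Benjamini-Hochberg adjustment covered every gene fitted, with a threshold of 0.05. The fit was tested on simulated data. The genes, lists and alike pairs were chosen with earlier results of these data known. Sample values are given for genes called at least once with a mean of 5 TPM or more in a line, and for Ctnnb1, Axin2 and Lef1, and other genes are given by ranges or counts. Wider pathway genes are named where called with a 2-fold or larger change in HM, at most 10, together with Apc, Gsk3b, Wls, Porcn and 8 responsive genes. No source says that equal replicate numbers pair samples across lines, and the main fits held no block.

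Alternatives were a pseudocount of 0.1, no filter, a mean of 5 TPM, centred or quantile normalized samples, a single fit of 3 lines, an unequal-variance test, a 1.5-fold limit, a replicate block, means of alike pairs, and samples left out. Motifs and seeds were matched in Python 3.11.15 with pandas 2.3.3 and numpy 2.4.6, and plots used matplotlib 3.10.9.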

Additional observations from a re-analysis of the deposited data

Results flagged for a closer look

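In WT, Znrf3 was at 7.05 TPM in replicate 5, against 7.94 to 8.26 TPM in the 5 other samples, far enough from them to pass Dixon's test at the 95% level (gap over range 0.736). Among the 94 gene and line groups examined this was the single case. A rate of 1 in 20 would give about 4.7 for independent samples. The samples fall into alike pairs, so the observed count cannot be judged against that number.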

How the results depend on the processing

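Replicates may be technical and depth is unknown, so small differences rest on the spread of alike samples. Of all genes, a 1.5-fold limit called 3008 (HM versus WT), 666 (HetKO versus WT) and 2099 (HM versus HetKO), and pair means called 3316, 34 and 417. The unequal-variance test called 852 between HetKO and WT. Of the Wnt genes, the 1.5-fold limit called 6, 2 and 4 in the same order, and pair means 4, 0 and 0. Between HetKO and WT, 2 were called by the unequal-variance test, 2 with the replicate block and 2 without HetKO replicates 2 and 5. The first share was 6.06%, against 6.09% of all genes, and the last was 6.06%, against 7.73%. Between HM and HetKO, a single fit of 3 lines called 13 of 32, beside 5603 of 13762 genes. With 1 library left out in turn, 8 to 14 Wnt genes were called between HM and WT (8 without WT replicate 2), 2 to 4 between HetKO and WT (2 without HetKO replicate 2 or 5 or WT replicate 2, 3 or 6) and 6 to 9 between HM and HetKO. Over all genes the numbers called with 1 library left out were 6541 to 7361, 959 to 1518 and 3655 to 5213 in the same order. The cause was not tested.

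With the replicate number as a block, 6889, 1206 and 4200 genes and 9, 2 and 7 Wnt genes were called. The deviations of same-numbered samples from their line means correlated by 0.00512, 0.0621 and 0.0206 on average. Of 6 samples, 1, 3 and 1 correlated best with their own number. Between HetKO and WT the same-numbered correlations were 0.0246 to 0.116, against a mean of -0.0122 for other numbers. What equal numbers have in common in these lines is not given and was not tested.

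Reversals of sign concerned differences that were not called. Axin2 between HM and WT became 0.156 with centred samples and 0.203 with quantile normalization, and ran from -0.167 to 0.0861 with 1 library left out. Ctnnb1 between HM and WT became -0.0861 and between HM and HetKO -0.000438 with quantile normalization. Between HetKO and WT, Ctnnb1 became 0.0286 with centred samples and 0.00606 without HetKO replicates 2 and 5, and Axin2 became -0.0462 without them. Lef1 between HetKO and WT became 0.0277 with centred samples and 0.0576 with quantile normalization, and ran from -0.209 to 0.0841 with 1 library left out. Axin2 between HM and HetKO became 0.0244 without HetKO replicates 2 and 5.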
